A study of Canis lupus familiaris with 22 samples.

Results

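Toll-like receptors and the CD40 pathway are described here through 6 genes, TLR2, TLR4, TLR7, TLR9, CD40 and CD40LG. They were chosen by name, and every array probe whose target is a canine RefSeq transcript of any of them was taken. All 6 had a probe, which makes them 6 of the 1458 genes whose probes could be given a symbol, and together they had 10 of the 43603 probes on the array. TLR2, TLR4, CD40 and CD40LG each had 2 probes, numbered in the order of their mean signal, and TLR7 and TLR9 had 1.

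Toll-like receptors recognise molecules of microbes and of damaged cells and signal through adaptor proteins to NF-kappaB, which switches on cytokine genes. TLR2 and TLR4 act at the cell surface, and TLR7 and TLR9 act in endosomes, where they meet RNA and DNA. CD40 is a receptor of the TNF receptor family on B cells, macrophages, dendritic cells and some epithelial cells, and CD40LG, carried mainly by activated helper T cells, engages it and so brings up costimulatory molecules such as CD86. In mammary tissue these genes are known from resident and infiltrating leukocytes, and TLR2 and TLR4 also from epithelial cells that meet bacteria in mastitis.

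The study compared malignant and benign canine mammary tumours (CMTs) with healthy mammary tissue on single-colour Agilent arrays. The labels name 6 malignant, 3 benign and 2 healthy dogs with 2 arrays each, and scanner values were analysed for 19 of these 22 arrays: 9 of 5 dogs with malignant CMTs, 6 of 3 with benign CMTs and 4 of 2 healthy animals. Malignant dog 5 has scanner values for 1 array only, and malignant dog 6 has none. Both arrays of a dog were averaged, so each dog counts once. The protocol of the labels calls the duplicates biological, while the study's methods describe duplicate arrays of each sample. They were treated here as technical duplicates of a dog.

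The malignant group held surgically removed tumours of several histological types, analysed as a single group. Benign CMTs were surgically removed tumours of adenoma and related types, and the healthy group was normal mammary gland of healthy dogs. Neither age nor breed of a dog stands in the labels, and the study's text names more benign and healthy dogs than the labels do. With 2 healthy dogs, every comparison with healthy tissue rests on those 2 animals.

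Levels are given as the log2 of the processed signal minus the 75th percentile of the array, so that 0 marks the 75th percentile of its probes. A probe counted as above background where the scanner called it well above background. A probe was tested where this held on at least 4 arrays, which was so for 35285 probes, among them 9 of the 10 described here. The untested one was probe 2 of CD40LG. Differences are log2 fold changes with their standard error (SE), and a probe was called where the adjusted p over all 35285 probes was at most 0.05.

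Checked against marker genes, the healthy tissue went against its label. Of 19 exocrine pancreas markers 7 had a probe, and their summed level, in multiples of the array's 75th percentile, was 4640 in healthy dog 1 and 1070 in healthy dog 2. In the malignant dogs that sum ran from 1.63 to 3.57 and in the benign dogs from 2.02 to 3.46. PLA2G1B was the most abundant of these genes in both healthy dogs, while REG3A was above background on 0 of 9 malignant and 0 of 6 benign arrays. The 5 measured of 6 pancreatic islet markers summed to 786 and 28 in healthy dogs 1 and 2, with INS the most abundant, against 4.87 in benign dog 2 and at most 0.552 in every other tumour.

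Mammary epithelium markers were present in both healthy dogs. Their 6 measured genes of 15 summed to 33.9 in healthy dog 1 and 80.6 in healthy dog 2. Both lay inside the range of the tumours, from 3.38 in malignant dog 5 to 350 in benign dog 3. KRT14 was the most abundant in healthy dog 1 and KRT19 in healthy dog 2, while ESR1 was at −6.52 and −3.41. The 2 measured milk proteins summed to 0.0638 and 3.58 in these dogs, against 0.0191 to 621 in the tumours. Whether these sums come from mammary tissue was not tested. Malignant dog 5, lowest in epithelial markers, was also the dog with the highest sum of adipose markers, 52.2 over the 3 measured of 7. The healthy dogs stand apart in pancreatic genes. For this reason the differences of TLR2, TLR4 and probe 1 of CD40 are also given with either healthy dog as the only control. The plot of fold changes by healthy control shows the same for every tested probe of the members. Genes of the lists are given against both healthy dogs only. The comparison of malignant with benign CMTs uses neither healthy dog.

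TLR2 and CD40 were the members with the largest differences, and both lay lower in healthy tissue than in most tumours. Values of malignant and healthy dogs overlapped in every tested probe except probe 1 of CD40. None of these differences passed the test. In malignant CMTs against healthy tissue, limma called 0 of the 9 tested probes, where 0 of all probes tested (0%) were called higher and 147 (0.417%) lower. In benign CMTs against healthy tissue it called 0 of the 9, where 1 of all probes (0.00283%) was called higher and 133 (0.377%) lower. Both comparisons share the same 2 healthy dogs, so their values are given side by side and are not independent of each other.

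Before adjustment, at p of at most 0.05, limma picked 2 of the 9 probes in malignant CMTs, probe 1 of TLR2 and probe 1 of CD40. In benign CMTs it picked 3, the same probes and probe 2 of TLR2. The study's methods name a paired t-test with a Storey correction. Groups of 5, 3 and 2 dogs allow no pairing, so the t-test used here differs from it. Before adjustment this t-test picked 1 probe in malignant CMTs, probe 1 of CD40, and 0 in benign CMTs. After adjustment it picked 0 in both. Over all probes limma picked 796 higher and 1255 lower in malignant CMTs and 1104 higher and 1290 lower in benign CMTs before adjustment. A p that misses the threshold does not show that the groups have the same level.

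**Figure D1:**
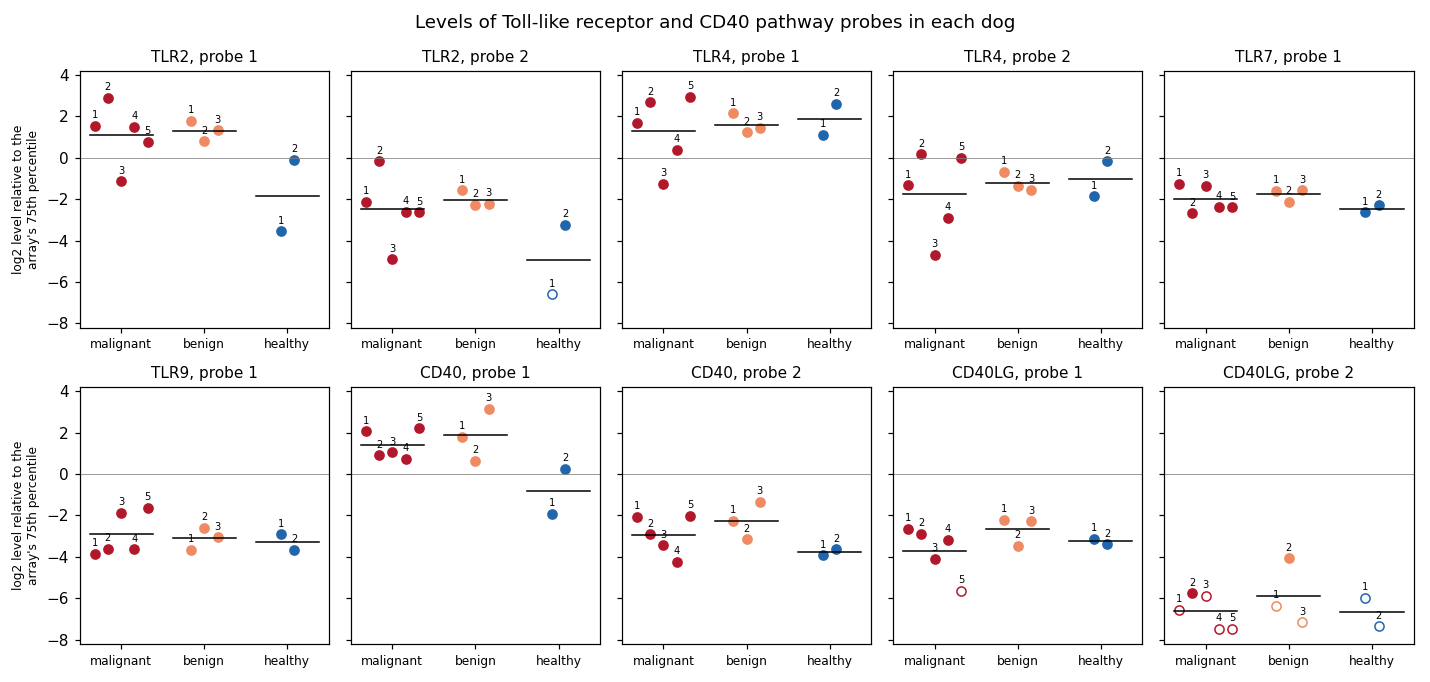
Level of each of the 10 probes in each dog, as log2 processed signal minus the 75th percentile of the array, with malignant, benign and healthy dogs in columns; a number is the dog, a filled point has at least 1 array above background, an open point none, and the black bar is the group mean. In probe 1 of CD40 both healthy dogs, at −1.93 and 0.26, lie below every tumour.

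TLR2 forms heterodimers with TLR1 or TLR6 at the cell surface and recognises bacterial lipoproteins. The level of its probe 1 was 1.53, 2.89, −1.13, 1.48 and 0.77 in malignant dogs 1 to 5, 1.79, 0.80 and 1.33 in benign dogs 1 to 3, and −3.56 and −0.10 in healthy dogs 1 and 2. Healthy dog 1 was the lowest of all, every benign dog and 4 of 5 malignant dogs lay above both healthy dogs, and malignant dog 3 lay between the healthy dogs. Arrays of the same dog differed by a median of 0.06 and at most 0.25. The steps between neighbouring dogs from benign dog 1 down to malignant dog 5 were at most 0.53, while malignant dog 2 stood 1.09 above the next dog and healthy dog 1 stood 2.43 below it.

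The difference of probe 1 of TLR2 between malignant CMTs and healthy tissue was 2.94 (SE 1.06), a fold of 7.66 with a 95% interval from 0.60 to 5.28 in log2, and an adjusted p of 0.745. Its difference between benign CMTs and healthy tissue was 3.14 (SE 1.16, interval 0.58 to 5.70, adjusted p 0.654). Most of the size rests on healthy dog 1. With healthy dog 2 as the only control the differences were 1.21 in malignant and 1.41 in benign CMTs, and with healthy dog 1 as the only control 4.67 and 4.87.

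Probe 2 of TLR2 was −2.14, −0.18, −4.90, −2.62 and −2.63 in the malignant dogs, −1.57, −2.28 and −2.23 in the benign dogs, and −6.60 and −3.24 in the healthy dogs. The order of the groups was that of probe 1: every benign dog and 4 of 5 malignant dogs lay above both healthy dogs, with malignant dog 3 between them. It was above background on 8 of 9 malignant, 6 of 6 benign and 2 of 4 healthy arrays, with neither array of healthy dog 1 above it. The differences were 2.42 (SE 1.13, adjusted p 0.863) in malignant and 2.89 (SE 1.23, adjusted p 0.717) in benign CMTs. With only healthy dog 2 as the control they were 0.74 and 1.21, and with only healthy dog 1 they were 4.11 and 4.57. The values against healthy dog 1 rest on signal not above background, so they are not exact.

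TLR2 and CD40 could also be compared between arrays that shared a slide. On the 3 slides that held both, malignant arrays lay above healthy ones in probe 1 of TLR2 by 3.42, 5.69 and 1.59. On the 2 slides with benign and healthy arrays the benign arrays lay above by 3.70 and 1.63. The slides with healthy arrays held no array of malignant dogs 3 and 5 or of benign dog 2. Malignant dog 3 is the tumour with the lowest TLR2. The healthy arrays were also among the dimmer ones: the 75th percentile was 8.58 to 18.7 times background in healthy, 6.37 to 39.9 times in malignant and 23.9 to 45.3 times in benign arrays. The part of signal strength in the differences of TLR2 was not tested.

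TLR4 recognises lipopolysaccharide at the cell surface together with LY96 and CD14. Its probe 1 was 1.68, 2.68, −1.25, 0.38 and 2.93 in the malignant dogs, 2.14, 1.23 and 1.44 in the benign dogs, and 1.1 and 2.60 in the healthy dogs. All 3 benign dogs lay between the 2 healthy dogs, malignant dogs 2 and 5 above both and malignant dogs 3 and 4 below both, so all groups overlapped. The differences were −0.57 (SE 1.01, interval −2.80 to 1.66) in malignant and −0.25 (SE 1.11, interval −2.70 to 2.20) in benign CMTs. Their sign turned with the control: they were −1.32 and −1.0 with healthy dog 2 alone, and 0.18 and 0.50 with healthy dog 1 alone.

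Probe 2 of TLR4 was −1.34, 0.16, −4.69, −2.91 and 0.01 in the malignant dogs, −0.69, −1.37 and −1.56 in the benign dogs, and −1.87 and −0.17 in the healthy dogs. The same malignant dogs, 2 and 5, lay above both healthy dogs and the same ones, 3 and 4, below both. The differences were −0.74 (SE 1.17) in malignant and −0.19 (SE 1.28) in benign CMTs. They were −1.59 and −1.04 with healthy dog 2 alone, and 0.11 and 0.66 with healthy dog 1 alone.

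TLR7 recognises single-stranded RNA in endosomes and is known from plasmacytoid dendritic cells, B cells and macrophages. Its level was −1.27, −2.68, −1.36, −2.36 and −2.40 in the malignant dogs, −1.60, −2.12 and −1.58 in the benign dogs, and −2.63 and −2.30 in the healthy dogs. Malignant dogs 1 and 3 and every benign dog lay above both healthy dogs, and the other malignant dogs lay among or below them. The differences were 0.45 (SE 0.52, interval −0.70 to 1.60, adjusted p 0.957) in malignant and 0.70 (SE 0.56, interval −0.54 to 1.94, adjusted p 0.878) in benign CMTs. Leaving out any dog kept them between 0.27 and 0.62 and between 0.54 and 0.88. With another background correction, normexp, the benign difference was 0.11. Without both malignant dog 3 and healthy dog 1 the malignant difference was 0.13.

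TLR9 recognises unmethylated CpG DNA in endosomes. Its level was −3.85, −3.61, −1.87, −3.63 and −1.62 in the malignant dogs, −3.66, −2.60 and −3.06 in the benign dogs, and −2.92 and −3.67 in the healthy dogs. Malignant dogs 3 and 5 stood highest, and every group overlapped with every other. Before scaling, their signals were 79.6, 93.5 and 148, inside the range of the other malignant arrays from 37.2 to 181. Their arrays had the lowest 75th percentiles of the malignant arrays, 300, 330 and 453. The part of this scaling in their rank was not tested. The differences were 0.38 (SE 0.71, interval −1.19 to 1.95) in malignant and 0.19 (SE 0.77, interval −1.51 to 1.89) in benign CMTs. Both are smaller than the median difference of 1.00 between the arrays of the same dog, which reached 1.62 in malignant dog 2.

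CD40, the receptor of the pair, was the only member with a probe in which every tumour lay above both healthy dogs. The level of this probe 1 was 2.06, 0.91, 1.05, 0.73 and 2.21 in the malignant dogs, 1.78, 0.65 and 3.16 in the benign dogs, and −1.93 and 0.26 in the healthy dogs. Benign dog 3 was the highest, 0.95 above malignant dog 5, and benign dog 2 was the lowest tumour, 0.39 above healthy dog 2. Healthy dog 1 lay a further 2.19 below, while arrays of the same dog differed by at most 0.19. Malignant and benign dogs were mixed in the order.

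The difference of probe 1 of CD40 was 2.23 (SE 0.79) in malignant CMTs, a fold of 4.68 with an interval from 0.49 to 3.97 and an adjusted p of 0.729. In benign CMTs it was 2.70 (SE 0.86), a fold of 6.48 with an interval from 0.80 to 4.60 and an adjusted p of 0.569. With healthy dog 2 as the only control the differences were 1.13 and 1.60, and with healthy dog 1 as the only control 3.32 and 3.79. Within slides, malignant arrays lay above healthy ones by 2.94, 3.30 and 0.43, and benign arrays by 2.71 and 2.19. In probe 2 of CD40 the malignant differences within slides were 1.68, 1.62 and −0.65, and the benign ones 1.55 and 1.6.

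Probe 2 of CD40 was −2.07, −2.92, −3.45, −4.25 and −2.03 in the malignant dogs, −2.25, −3.15 and −1.35 in the benign dogs, and −3.92 and −3.63 in the healthy dogs. Every benign dog and 4 of 5 malignant dogs lay above both healthy dogs, and malignant dog 4 was the lowest of all. Here the healthy dogs lay 0.29 apart, not 2.19 as in probe 1. The differences were smaller here, 0.83 (SE 0.70, adjusted p 0.950) in malignant and 1.52 (SE 0.76, adjusted p 0.758) in benign CMTs.

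CD40LG is the ligand that T cells present to CD40. Its probe 1 was −2.64, −2.89, −4.11, −3.19 and −5.65 in the malignant dogs, −2.22, −3.46 and −2.28 in the benign dogs, and −3.12 and −3.39 in the healthy dogs. Malignant dog 5 was the lowest, with its single array not above background, and in both tumour groups some dogs lay above and some below the healthy dogs. It was above background on 7 of 9 malignant, 6 of 6 benign and 4 of 4 healthy arrays. The differences were −0.44 (SE 0.77, interval −2.14 to 1.26) in malignant and 0.60 (SE 0.84, interval −1.26 to 2.46) in benign CMTs. Probe 2 of CD40LG was above background on 1 of 9 malignant arrays, 2 of 6 benign arrays, both of benign dog 2, and 0 of 4 healthy arrays, and no fold change is given for it.

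**Figure D2:**
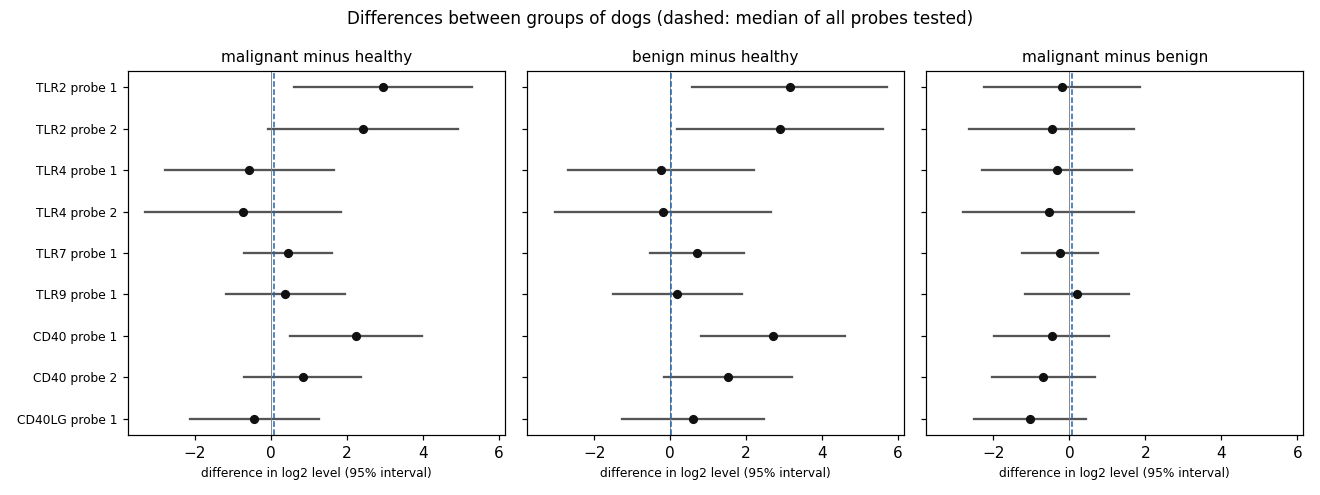
Log2 fold change of each tested probe, as a point with its 95% interval, for malignant against healthy, benign against healthy and malignant against benign dogs; the dashed line is the median of all 35285 probes tested. The intervals of probe 1 of CD40 lie above 0 in the comparisons with healthy tissue, from 0.49 to 3.97 and from 0.80 to 4.60, before adjustment for the number of probes.

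Groups that did not overlap were counted beside the same count over all probes tested. Every malignant dog lay above both healthy dogs in 1 of the 9 members' probes, probe 1 of CD40, and in 1504 (4.26%) of all probes. Every benign dog lay above both healthy dogs in 5 of the 9, both probes of TLR2, both probes of CD40 and the probe of TLR7, and in 4372 (12.4%) of all probes. Every tumour lay above both healthy dogs in 1 of the 9, again probe 1 of CD40, and in 960 (2.72%) of all probes. The 5 benign cases come from 3 genes, and 2 probes of a gene are not separate genes.

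**Figure D3:**
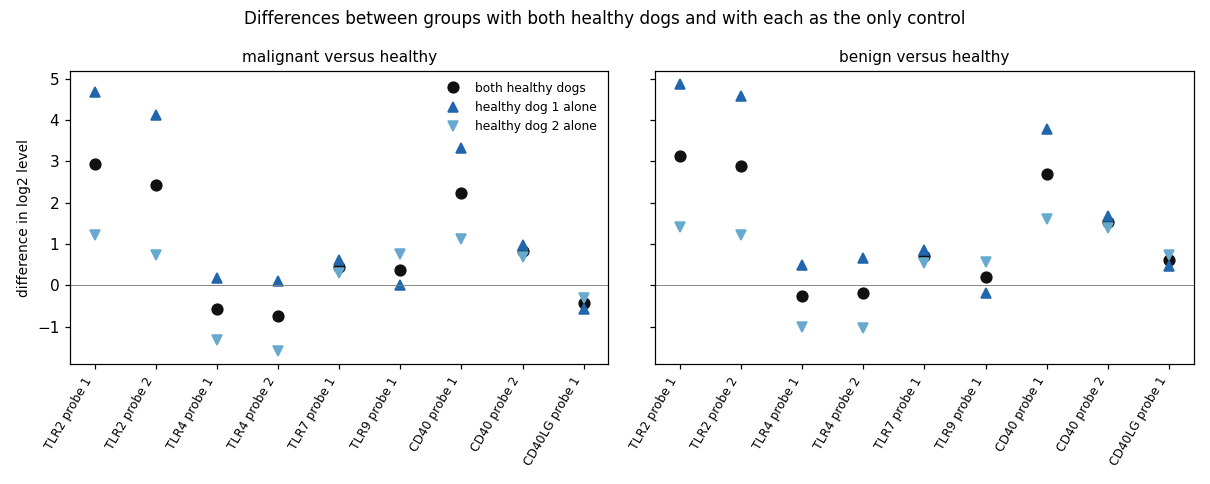
Log2 fold change of each tested probe in malignant and in benign dogs against both healthy dogs and against either healthy dog as the only control. In probe 1 of TLR2 the malignant difference is 1.21 against healthy dog 2 and 4.67 against healthy dog 1, and in probe 1 of TLR4 it runs from −1.32 to 0.18.

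Malignant and benign CMTs were also compared directly, without the healthy dogs. No member stood out: limma called 0 of the 9 probes, where it called 0 (0%) of all probes higher and 0 (0%) lower. Before adjustment limma and the t-test both picked 0 of the 9, and over all probes limma picked 233 higher and 403 lower. Every malignant dog lay above every benign dog in 0 of the 9 and in 365 (1.03%) of all probes, and below every benign dog in 0 of the 9 and in 321 (0.91%) of all probes.

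The largest difference between the tumour groups was that of probe 1 of CD40LG, −1.04 (SE 0.67, interval −2.52 to 0.44). Malignant dog 5 was the lowest in this probe, not above background, and measured on a slide and in a scan run of its own. Without that dog the difference of CD40LG was −0.56, and with another background correction, normexp, it was −0.05. The difference was −0.47 (SE 0.69, interval −1.99 to 1.05) in probe 1 of CD40. It was −0.20 (SE 0.93, interval −2.25 to 1.85) in probe 1 of TLR2 and −0.32 (interval −2.29 to 1.65) in probe 1 of TLR4. Malignant dogs were more spread than benign dogs in TLR2 and TLR4. The standard deviation was 1.47 against 0.50 in probe 1 of TLR2 and 1.73 against 0.48 in probe 1 of TLR4. In probe 1 of CD40 the benign dogs were more spread, with 0.69 in malignant and 1.26 in benign dogs. No test of these spreads was made.

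Genes whose levels were most like each member over the 10 dogs were named from 1315 genes by Pearson r with the member's probe 1. The level of TLR2 was most like EOGT (r = 0.981), F3 (0.914) and TLR1 (0.893). TLR4 was most like PEBP1 (0.913), CNBP (0.903) and TJP1 (0.895). For CD40 they were ANXA1 (0.943), TYROBP (0.930) and CTSS (0.917), of which TYROBP and CTSS were, like probe 1 of CD40, lowest in healthy dog 1. For TLR7 they were RAB4B (0.893), MPP1 (0.829) and OAS3 (0.815). For TLR9 they were MC1R (0.952), CD1A6 (0.948) and SLC5A2 (0.939), and for CD40LG RAB27A (0.919) and AAMP (0.912) were among them. With 10 dogs, all measured on the same arrays, these are descriptions. CD1A6 was, like TLR9, highest in malignant dogs 3 and 5, whose arrays had low 75th percentiles. The part of this in their likeness was not tested.

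The other genes of these pathways were described by lists, counting each gene once by its brightest probe. limma called 0 genes of any of the 8 lists in any comparison, and the median difference over all probes tested was 0.07 in malignant and 0.03 in benign CMTs. Of the other Toll-like receptors 3 of 6 were tested, with a median of 0.31 in malignant and 0.84 in benign CMTs. TLR1, the partner of TLR2, was −0.10, −0.26, −3.28, −1.32 and −0.69 in the malignant dogs, −0.36, −0.02 and 0.25 in the benign dogs, and −4.41 and −1.16 in the healthy dogs. Its low values were in the same dogs as those of TLR2, healthy dog 1 and malignant dog 3, and its differences were 1.65 (SE 0.97, adjusted p 0.919) and 2.74 (SE 1.05, adjusted p 0.681). TLR5, a receptor of flagellin, had −0.92 and −0.89, and TLR10 had 0.31 and 0.84. TLR5 was above background on 2 of 9 malignant, 2 of 6 benign and 0 of 4 healthy arrays, so its values are not exact.

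Of the partners that bind ligands or process receptors with the Toll-like receptors, 6 of 17 were tested, with medians of 0.71 in malignant and 0.12 in benign CMTs. CTSS, a protease of endosomes that takes part in the maturation of TLR7 and TLR9, had differences of 1.28 (SE 0.85) and 1.95 (SE 0.93). CD36, a coreceptor of TLR2, had 0.89 and −0.95. CTSK and AGER had 0.58 and 0.84 in malignant and 1.22 and 0.07 in benign CMTs.

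Of the adaptors and kinases of Toll-like receptor signalling only 5 of 30 were tested, so the signalling chain was largely not seen, MYD88 included. Their medians were −0.59 and 0.39. TICAM2, an adaptor of TLR4, had differences of 1.07 and 0.78, MAPK3 −0.85 and −0.69, and MAP2K1 −0.74 and −0.12. TICAM2 was above background on 0 of 4 healthy arrays, so its differences are not exact.

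Downstream of CD40, 7 of 22 adaptors and NF-kappaB genes were tested, with medians of 0.23 and 0.74. In 2 of the 7, and in 12.4% of all probes, every benign dog lay above both healthy dogs. BIRC3, a ubiquitin ligase of the CD40 complex and a target of NF-kappaB, had −0.10 (SE 1.23) in malignant and 2.22 (SE 1.34) in benign CMTs. NFKB1 had 0.31 and 1.12, TRAF5 0.41 and 1.14, and BCL2 −0.66 and −1.67. Among relatives of CD40 and CD40LG in the TNF families, 6 of 25 were tested, with medians of 0.17 and 0.40. LTB had 1.41 and 2.98, FASLG 0.93 and 0.44, TNFSF10 −0.61 and 0.35, and TNFSF13 0.10 and 0.57. TRAF5 and FASLG were above background on 0 of 4 healthy arrays, so their values are not exact. FASLG was above background on only 2 of 9 malignant and 2 of 6 benign arrays.

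T cell costimulation, the step that CD40 brings up in antigen-presenting cells, had 13 of its 23 genes tested. Their median difference was 1.69 in malignant and 2.25 in benign CMTs, and 12 of the 13 were above 0 in each. Of all probes 54.1% and 51.4% were above 0. Every benign dog lay above both healthy dogs in 10 of the 13, against 12.4% of all probes. Every malignant dog did so in 1, CD86, a ligand of CD28, against 4.26% of all probes. CD86 was 2.88, 0.93, 2.92, 1.82 and 1.53 in the malignant dogs, 2.58, 2.67 and 3.30 in the benign dogs, and −1.05 and 0.52 in the healthy dogs. As with probe 1 of CD40, no tumour was as low as either healthy dog, with differences of 2.28 (SE 0.66, adjusted p 0.492) and 3.11 (SE 0.72, adjusted p 0.229). CTLA4 had 0.64 and 2.78, and the MHC class II genes DLA-DQB1 and DLA-DMB had 1.89 and 1.81 in malignant and 2.59 and 2.43 in benign CMTs. Before adjustment limma picked 2 of these 13 in malignant and 3 in benign CMTs, all of them higher. Of all probes it picked 2.26% and 3.13% as higher.

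Cytokine and inflammatory genes that NF-kappaB can switch on were the best covered list, with 35 of 41 tested. Their medians were 0.60 in malignant and 2.01 in benign CMTs. Above 0 were 20 and 28 of the 35, against 54.1% and 51.4% of all probes. Before adjustment limma picked 5, of which NOS2 was lower, and 14, all of them higher. Over all 35285 probes it picked 796 higher and 1255 lower in malignant and 1104 higher and 1290 lower in benign CMTs. The largest differences in benign CMTs were those of MMP9, CXCL8, IL1A and CCL8. In malignant and benign CMTs MMP9 had 4.60 (SE 1.17) and 5.62 (SE 1.28), and CXCL8 2.51 (SE 1.32) and 5.50 (SE 1.44). IL1A had 1.70 (SE 1.34) and 5.18 (SE 1.46), and CCL8 2.24 (SE 0.98) and 4.67 (SE 1.07). In malignant CMTs CCL17, 2.93, and CCL2, 2.77, lay above CXCL8 and CCL8. IL1A was above background on 0 and MMP9 on 2 of 4 healthy arrays, so their differences are not exact. Of other pattern recognition receptors 3 of 21 were tested, with medians of 0.48 and 1.41. CASP4, listed by its synonym CASP1, had 1.71 and 3.07, CD209 −1.75 and 0.63, and EIF2AK2, a sensor of double-stranded RNA, 0.48 and 1.41.

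**Figure D4:**
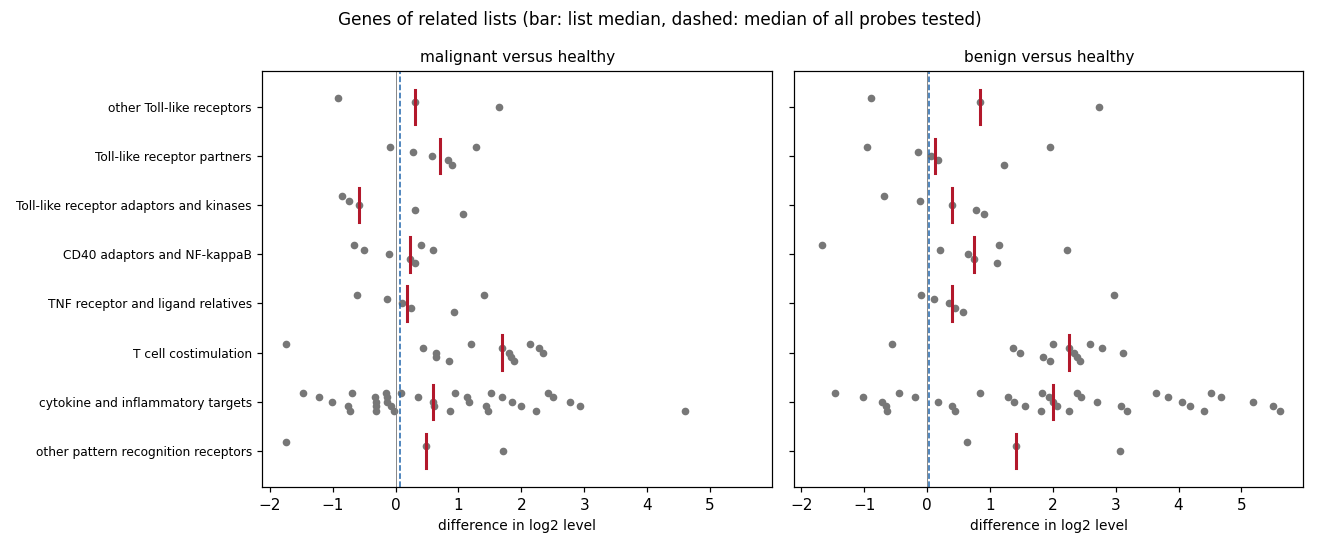
Log2 fold change of each tested gene of the 8 lists in malignant and in benign dogs against healthy dogs; a point is a gene, the bar the median of the list, and the dashed line the median of all probes tested. The cytokine and inflammatory genes lie at a median of 0.60 in malignant and 2.01 in benign dogs, and the costimulation genes at 1.69 and 2.25.

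Monocytes and macrophages are cells that carry TLR2, TLR4 and CD40. Of 15 of their markers 6 had a probe, and all 6 had differences above 0 in both tumour groups. Of all probes 54.1% in malignant and 51.4% in benign CMTs were above 0. The medians of the 6 markers were 1.42 in malignant and 2.48 in benign CMTs. Their summed level was 49.4, 16.4, 20.4, 19.1 and 54.3 in the malignant dogs, 38.8, 64.2 and 84.9 in the benign dogs, and 3.34 and 17.0 in the healthy dogs. Healthy dog 1 was the lowest by far, as in probe 1 of TLR2 and of CD40. Healthy dog 2 lay among the malignant dogs. Malignant dog 2, the highest in TLR2, had the lowest sum of the tumours. SLC11A1 was the most abundant of these genes in every dog. limma called 1 of the 6 in benign CMTs, FCGR1A, an IgG receptor, and 0 in malignant CMTs. FCGR1A was higher by 4.04 (SE 0.63, limma adjusted p 0.0208) and was the only probe of the array called higher. That call was lost in alternatives: 0 probes were called higher with only the 2 groups compared in the fit, and 0 with the adjusted t-test. The exocrine pancreas list, with 6 of 7 called lower, had medians of −11.47 and −11.11, and the islet list, with 3 and 2 of 5 called lower, had −6.80 and −6.08. The part of any of these markers in the differences of TLR2 and CD40 was not tested. In bulk tissue, fewer cells of a type and less RNA of a gene per cell cannot be told apart.

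Dendritic cell markers, 5 of 12 with a probe, summed to 8.58, 2.33, 8.15, 3.97 and 3.55 in the malignant dogs, 6.90, 6.93 and 11.8 in the benign dogs, and 0.732 and 2.10 in the healthy dogs. Their most abundant gene in every dog was CD86, which also stands in the costimulation list, and their medians were 0.54 and 0.64. B cells, which carry CD40 and TLR9, were seen through 2 of 9 markers, which summed to between 0.093 and 0.239 in every dog, with medians of −0.25 and 0.14. T and NK cell markers, 7 of 18, had sums from 0.443 in healthy dog 1 to 2.75 in malignant dog 1. Their medians were 0.29 and 0.59. Neutrophil markers, 5 of 9, summed to 1.55 and 13.8 in the healthy dogs and reached 242 in malignant dog 4 and 351 in benign dog 3. S100A8 was the most abundant of them in those 2 tumours. Malignant dogs 3 (6.23) and 5 (3.47) lay below healthy dog 2. The neutrophil medians were 0.11 and 1.92, and ELANE and CAMP had differences below 0. Of 6 markers shared by all leukocytes none had a probe with a symbol, so the leukocyte content of the tissues was not measured by them. Among other tissues, the medians were 0.64 and 0.96 for 6 of 10 fibroblast markers, −1.12 and −0.57 for 2 of 8 endothelial markers, −0.60 and 0.11 for mammary epithelium, 1.47 and −0.60 for 2 of 6 milk proteins, 1.19 and −0.78 for adipose tissue, and 0.32 and 0.03 for 3 tested of 7 skeletal muscle markers.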

How the data were processed

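Single-colour array signal was measured in malignant and benign CMTs and healthy mammary tissue. The authors deposited scanner files with background-subtracted processed signal intensity, and a series table of median spot intensity that equals the median signal in those files. Here the log2 of the deposited intensity minus the array's 75th percentile was taken, repeated spots were averaged, and so were both arrays of a dog. Probes well above background on at least 4 of 19 arrays were kept (35285 of 43603). All 3 groups were fitted together with limma 3.58.1 in R 4.3.3, with Benjamini-Hochberg adjustment over all probes tested. The code was tested on simulated data. Symbols came from a RefSeq table. Members and lists were chosen with earlier results of these data known. Named genes are every member probe, up to 4 genes of each list with the largest difference from healthy tissue in either tumour group, and up to 3 genes most like each member. Marker lists and their genes were described by counts, medians and sums. CD40LG probe 2 was left untested. Between 62.1% and 83.2% of probes on an array were above background. In 23 alternatives these choices were varied: the background correction, the file, the filter, the test, the terms of the fit and the dogs used. A further alternative was added after seeing the data.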

Additional observations from a re-analysis of the deposited data

Results flagged for a closer look

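The series table holds 3 malignant arrays that have no scanner values, 1 of malignant dog 5 (array b) and 2 of malignant dog 6, which no comparison above uses. Its values are median spot signals without background subtraction, put on the same log2 scale against the array's 75th percentile. What drew attention is that most of them in the tested probes lay above both healthy dogs of that table. In array b of malignant dog 5 this held for 8 of the 9 tested probes: 0.84 and −2.20 in TLR2, 2.93 and 0.02 in TLR4, −1.66 in TLR7, −1.49 in TLR9, and 1.84 and −1.53 in CD40. In malignant dog 6 it held for 6 of the 9. These were 1.15 in probe 1 of TLR2, −0.90 in TLR7, −1.99 in TLR9, 1.41 and −2.30 in CD40, and −1.23 in CD40LG. It did not hold for CD40LG in array b of malignant dog 5 (−3.03). Nor did it hold in malignant dog 6 for probe 2 of TLR2 (−2.68) and the probes of TLR4 (1.26 and −1.55). No share over all probes was counted beside these counts, so it is not known whether other probes did so as often.

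The healthy dogs had −2.34 and 0.01 in probe 1 of TLR2 in that table, −1.88 and −1.83 in TLR7, −2.10 and −2.63 in TLR9, −1.62 and 0.05 in probe 1 of CD40, −2.43 and −2.46 in its probe 2, and −2.11 and −2.43 in CD40LG. In probe 2 of TLR2 they had −2.96 and −2.33, and in the probes of TLR4 1.12 and 2.61, and −1.46 and −0.10. These differences were not tested.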

How the results depend on the processing

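No member was called under any alternative that adjusts for all probes. Under 23 alternatives 538 fold changes of members kept their direction and 38 turned. All that turned were of TLR4, TLR9, CD40LG or of malignant against benign CMTs. TLR2 and CD40 stayed above healthy tissue throughout, but their size changed. With normexp background correction probe 2 of TLR2 fell to 0.74 in malignant and 0.55 in benign CMTs. Probe 2 of CD40 fell there to 0.26 and 0.33. Of the counts of members 118 of 129 and of the counts of probes 52 of 69 stayed within 1.5 times. The cause of these turns was not tested.

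With normexp background correction TLR9 was −0.09 in malignant and −0.51 in benign CMTs, CD40LG −0.18 in benign CMTs, and malignant against benign CMTs 0.18 in probe 2 of TLR2, 0.08 in probe 2 of TLR4 and 0.03 in TLR7. From the series table with the same dogs TLR9 was −0.03 and −0.35, and probe 2 of TLR2 0.05 in malignant against benign CMTs; with all dogs of that table TLR9 was −0.35 in benign CMTs and TLR7 0.06 in malignant against benign CMTs. In these 3 settings the members' probes in which every benign dog lay above both healthy dogs were 3, not 5, with no share over all probes counted. The median of all probes moved too, to −0.49, −0.36 and −0.36 in benign CMTs.

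The probes called in malignant and benign CMTs were 42 and 39 with only those above background on every array, and 88 and 81 with the brightest probe of each transcript, where fewer were tested. They were 37 in benign CMTs with only the 2 groups compared in the fit. The t-test called 32 and 0 after adjustment, and before it 1415 and 1716, 802 in malignant against benign CMTs, with 1 member in malignant CMTs.

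The numbers of the dogs were not taken to pair them. Deviations from the group mean of dogs with the same number had r from −0.174 to 0.106. With 2 healthy dogs the deviations of one mirror those of the other, so these r cannot decide whether the numbers pair dogs. The replicate block, with the number as a block, gave 89 and 85 probes called, TLR9 −0.14, −0.14 and 0 in the 3 comparisons, CD40LG 0.17 in malignant CMTs, and TLR4 0.36 and 0.58 in benign CMTs. A term for the slide with the dog as a random block gave TLR9 −0.28, −0.14 and −0.14 and CD40LG 0.15 in malignant CMTs.

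Leaving out 1 dog at a time, the probes called ran from 96 to 950 in malignant CMTs, from 86 to 994 in benign CMTs and from 0 to 2 between the tumour groups. The high values came without healthy dog 2, where the lone healthy dog is assumed to vary like the other groups. In malignant CMTs TLR4 ran from −1.32 to 0.18 in probe 1 and from −1.59 to 0.11 in probe 2, and CD40LG from −0.70 to 0.05. In benign CMTs TLR4 ran from −1.0 to 0.50 and from −1.04 to 0.66, and TLR9 from −0.19 to 0.56. Between the tumour groups TLR2 ran from −0.65 to 0.36 and from −1.05 to 0.13, TLR4 from −0.73 to 0.31 and from −1.03 to 0.19, TLR9 from −0.13 to 0.44, and probe 1 of CD40 from −1.08 to 0.18. The members' probes, of 10, in which every malignant dog, or every tumour, lay above each healthy dog kept were 1 to 3. Those in which malignant and benign dogs did not overlap were 0 to 1. Fewer dogs make such cases easier for any probe, and no share over all probes was counted.

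Chosen after seeing the data, leaving out both dogs with the dimmest arrays, malignant dog 3 and healthy dog 1, gave 97 and 84 probes called. Malignant against benign CMTs were then 0.36 and 0.13 in TLR2, 0.31 and 0.19 in TLR4 and −0.07 in TLR9. The members' probes in which every malignant dog, and every tumour, lay above the healthy dog left were 3 and 3 of 10. No share over all probes was counted there. Low signal over background limits probe 2 of TLR2, with 2 of 4 healthy arrays above background, and CD40LG, with 7 of 9 malignant arrays in probe 1.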
